A study of Mus musculus with 6 samples.

Results

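The Slc4 and Slc26 anion exchangers of the kidney were followed in Tsc1-KO mice through 9 genes, Slc4a1, Slc26a7, Slc26a4, Slc4a9, Slc4a4, Slc26a1, Slc26a6, Slc4a2 and Slc4a7. They were chosen by symbol as bicarbonate and anion transporters of A-intercalated cells (A-ICs), B-intercalated cells (B-ICs) and proximal tubule cells, and all 9 were found among the 15302 genes of the deposited table. The Tsc1-KO mice carried a floxed Tsc1 gene and a Cre recombinase driven by the promoter of Aqp2 (Tsc1f/f/Aqp2 Cre), which deletes Tsc1 in principal cells, while A-ICs, B-ICs and proximal tubule cells are not the cells this Cre is meant to act in. They were set against wild-type (WT) C57BL/6 mice, for which the labels give neither the floxed alleles nor the Cre, so that effects of the Cre itself, of genetic background and of Tsc1 loss cannot be told apart. Poly A-selected RNA of whole kidney, taken at 45 days of age in both groups, gave 3 Tsc1-KO libraries (replicates 4 to 6) and 3 WT libraries (replicates 1 to 3).

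Transport of bicarbonate across tubule cells rests on members of these gene families that sit on opposite faces of a cell. An A-IC secretes acid with an apical H+-ATPase and returns bicarbonate to the blood in exchange for chloride through AE1, the product of Slc4a1, on its basolateral face. A B-IC works the other way round, with pendrin (Slc26a4) on the apical face releasing bicarbonate into the urine and AE4 (Slc4a9) on the basolateral face. In the proximal tubule, where most filtered bicarbonate is taken back, the sodium bicarbonate cotransporter NBCe1 (Slc4a4) carries it into the blood. Slc4a4 and Slc4a7 thus belong to the Slc4 family as sodium-coupled cotransporters and not as exchangers in the strict sense.

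Values are given in FPKM, a read count scaled to transcript length and to the mapped reads of the library, so that levels of different genes can be set beside each other. Between 19568856 and 24647430 reads per library fell in listed genes. Tsc1 was between 7.62 and 8.23 FPKM in Tsc1-KO libraries and between 7.49 and 8.91 FPKM in WT libraries, and as the other cells of the kidney keep the gene, this level does not check the labels. The WT libraries were not alike. The correlation of WT replicate 3 with the other WT libraries across tested genes was 0.976 and 0.977, while those correlated with each other at 0.992. With Tsc1-KO replicates 4, 5 and 6, WT replicate 3 correlated at 0.981, 0.98 and 0.974. The MHC pseudogene H2-Ea-ps was listed at 0 in every Tsc1-KO library, whereas WT replicates 1 and 2 had 20.3 and 27.1 FPKM and WT replicate 3 had 0.532 FPKM. On this gene, whose expression depends on mouse strain, WT replicates 1 and 2 are the libraries that differ from the other 4, and its part in the results was not tested. Values without WT replicate 3 are given where leaving it out changes a call. Differences were tested on log2(FPKM + 0.1) with limma over 13230 genes, those whose mean reached 0.5 FPKM, and a gene was called at a Benjamini-Hochberg adjusted p under 0.05. The labels number the libraries without stating that each came from a separate mouse, so p-values measure the spread between these samples.

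Of the 9 exchangers, Slc4a1 rose and Slc26a1 fell in Tsc1-KO kidneys, and the other 7 did not pass the adjusted test. The 1 of 9 called higher stands beside 1.87% of all tested genes called higher, and the 1 of 9 called lower beside 0.234% called lower. The 3 Tsc1-KO libraries lay above all WT libraries for 3 exchangers (Slc4a1, Slc4a2 and Slc26a6), as for 17.3% of all tested genes, and below all of them for 5 (Slc26a7, Slc4a4, Slc26a1, Slc26a4 and Slc4a7), as for 8.07% of all tested genes. The groups overlapped for Slc4a9. Slc26a7 is among the 5 only because its WT values carried it past the minimum for testing. The median log2 fold change was -0.19 over the 9 exchangers and 0.04 over all tested genes. In RNA of whole kidney, a change in the number of cells of a type and a change in RNA per cell cannot be told apart.

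**Figure D1:**
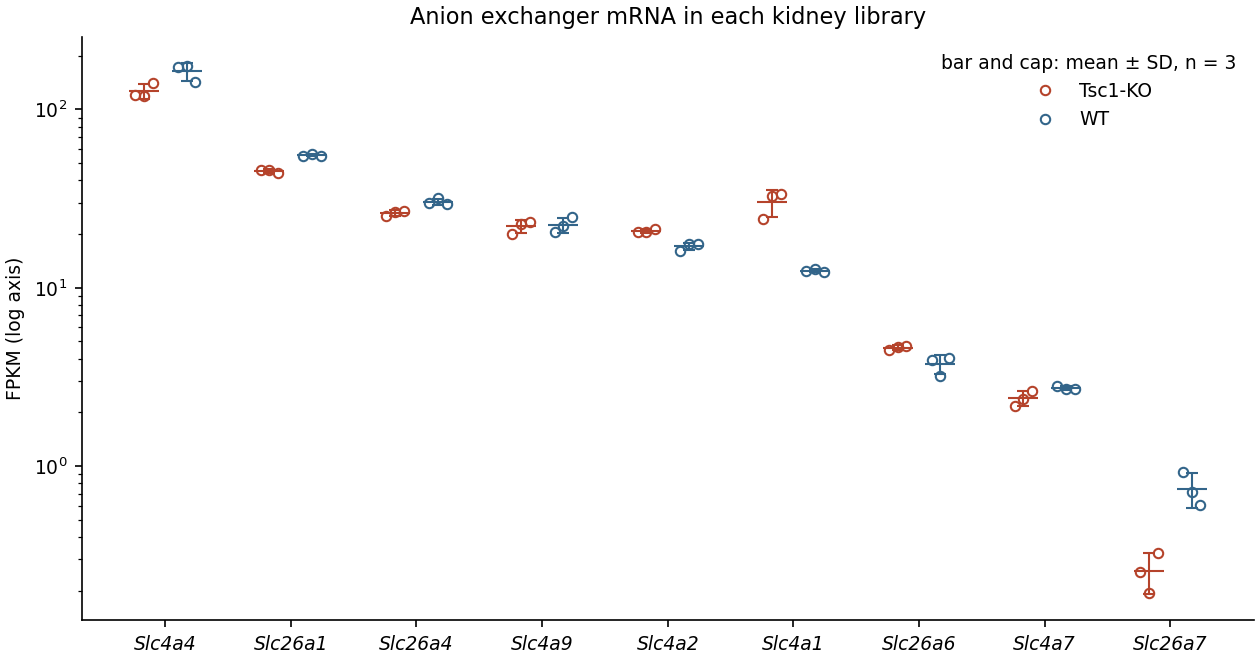
FPKM of the 9 anion exchangers on a log axis, ordered by the WT mean, with 1 open circle per library (Tsc1-KO left, WT right of each gene) and the mean ± SD of 3 libraries. Slc4a1 averaged 30.2 FPKM in Tsc1-KO and 12.5 FPKM in WT, Slc26a7 averaged 0.258 FPKM in Tsc1-KO and 0.748 FPKM in WT, and the circles of Slc4a9 overlap.

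Slc4a1 (NCBI Gene identifier 20533), the basolateral chloride/bicarbonate exchanger of A-ICs, had 24.2, 32.9 and 33.5 FPKM in Tsc1-KO replicates 4, 5 and 6, against 12.4, 12.8 and 12.2 FPKM in WT replicates 1, 2 and 3. The lowest Tsc1-KO library was thus well above the highest WT library, and the Tsc1-KO libraries varied more among themselves (SD 5.16 FPKM) than the WT libraries (SD 0.259 FPKM). The means stood at a ratio of 2.42, a log2 fold change of 1.25 (standard error 0.126, 95% interval 0.96 to 1.55, limma adjusted p = 0.00875). Behind these values were 2360, 2929 and 3753 reads in the Tsc1-KO libraries and 1262, 1303 and 1204 reads in the WT libraries. An exact permutation test of this gene alone gave p = 0.1, which is the smallest p that 3 against 3 libraries allow. The call was lost when Tsc1-KO replicate 5, Tsc1-KO replicate 6 or WT replicate 1 was left out, with limma adjusted p = 0.0542, 0.0607 and 0.0607, while the log2 fold change stayed between 1.17 and 1.40 over all 12 alternatives.

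Slc26a7 (identifier 208890), which also serves A-ICs as a basolateral chloride/bicarbonate exchanger, in medullary collecting duct above all, was the least abundant of the 9. Its FPKM was 0.256, 0.194 and 0.325 in Tsc1-KO replicates 4, 5 and 6, against 0.925, 0.714 and 0.605 in WT replicates 1, 2 and 3. Every Tsc1-KO library was below every WT library, and the change in the mean was -65.4%. The gene was sparsely read, with 13, 9 and 19 reads in the Tsc1-KO libraries and 49, 38 and 31 reads in the WT libraries, and its mean of 0.503 FPKM reached the minimum for testing only through the WT libraries, so its values are a description. The log2 fold change of -1.24 (standard error 0.25, 95% interval -1.83 to -0.65) did not pass, with limma adjusted p = 0.0617. It moved to -0.47 with a pseudocount of 1 FPKM and to -1.49 with limma-voom on whole reads, and the adjusted p was 0.0345 once WT replicate 3 was left out, 0.0433 with no filter on low values and 0.0441 with no variance trend.

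The ratio of Slc4a1 to Slc26a7 within a library was 94.6, 170 and 103 in Tsc1-KO replicates 4, 5 and 6, against 13.4, 17.9 and 20.2 in WT replicates 1, 2 and 3. The ranges did not overlap, and the ratio rests on as few as 9 reads of Slc26a7.

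Pendrin, encoded by Slc26a4 (identifier 23985), the apical chloride/bicarbonate exchanger of B-ICs, had 25.2, 26.8 and 27.1 FPKM in Tsc1-KO replicates 4, 5 and 6, against 29.8, 31.7 and 29.6 FPKM in WT replicates 1, 2 and 3. Every Tsc1-KO library was below every WT library, with a change in the mean of -13.2%. With a log2 fold change of -0.20 (standard error 0.0586, 95% interval -0.34 to -0.065), the gene did not pass the test (limma adjusted p = 0.132), nor did it under any of the 12 alternatives, where the adjusted p was between 0.0735 and 0.341.

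Slc4a9 (identifier 240215), which encodes the basolateral AE4 of B-ICs, had 20.0, 22.9 and 23.4 FPKM in Tsc1-KO replicates 4, 5 and 6, against 20.6, 22.1 and 24.9 FPKM in WT replicates 1, 2 and 3. The groups overlapped throughout. The log2 fold change was -0.027 with a 95% interval of -0.25 to 0.20 (limma adjusted p = 0.904), so that a change of more than about 0.25 in either direction lies outside the interval. Its sign depended on single libraries, and the log2 fold change turned to 0.042 when Tsc1-KO replicate 4 was left out and to 0.046 when WT replicate 3 was.

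**Figure D2:**
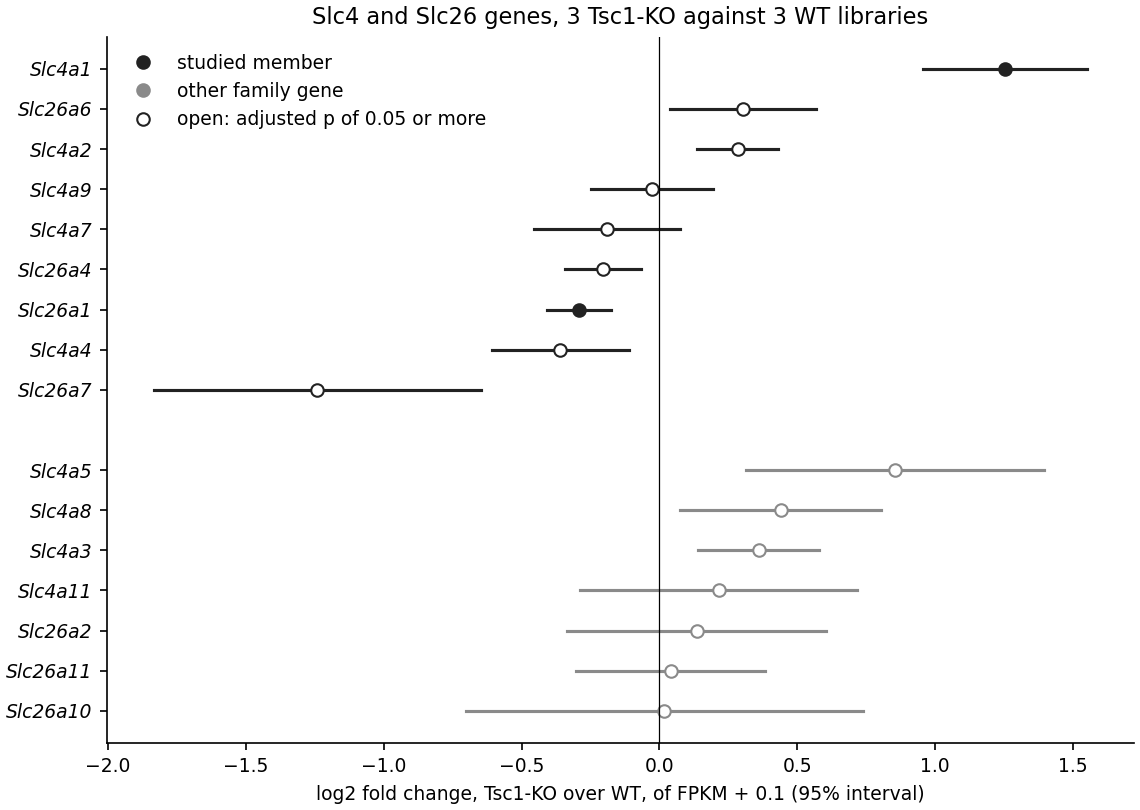
Log2 fold change of FPKM + 0.1, Tsc1-KO over WT, with its 95% interval from limma, for the 9 exchangers (black) and 7 other tested Slc4 and Slc26 genes (grey); filled circles passed at an adjusted p under 0.05. Slc4a1 (1.25) and Slc26a1 (-0.29) are filled, and the widest interval among the 9 is that of Slc26a7 (-1.83 to -0.65).

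Set against the B-IC exchangers, Slc4a1 changed its place. In Tsc1-KO replicates 4, 5 and 6 the ratio of Slc4a1 to Slc26a4 was 0.962, 1.23 and 1.23, against 0.416, 0.403 and 0.413 in WT replicates 1, 2 and 3, a difference of 1.47 on the log2 scale with no overlap (exact permutation p = 0.1, the smallest possible). The ratio of Slc4a1 to Slc4a9 was 1.21, 1.44 and 1.43 in the Tsc1-KO libraries, against 0.601, 0.577 and 0.492 in the WT libraries. It too was separated without overlap (exact permutation p = 0.1). Between the B-IC genes, the ratio of Slc26a4 to Slc4a9 was 1.26, 1.17 and 1.16 in the Tsc1-KO libraries, against 1.44, 1.43 and 1.19 in the WT libraries. These ranges overlapped through WT replicate 3 (exact permutation p = 0.2).

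**Figure D3:**
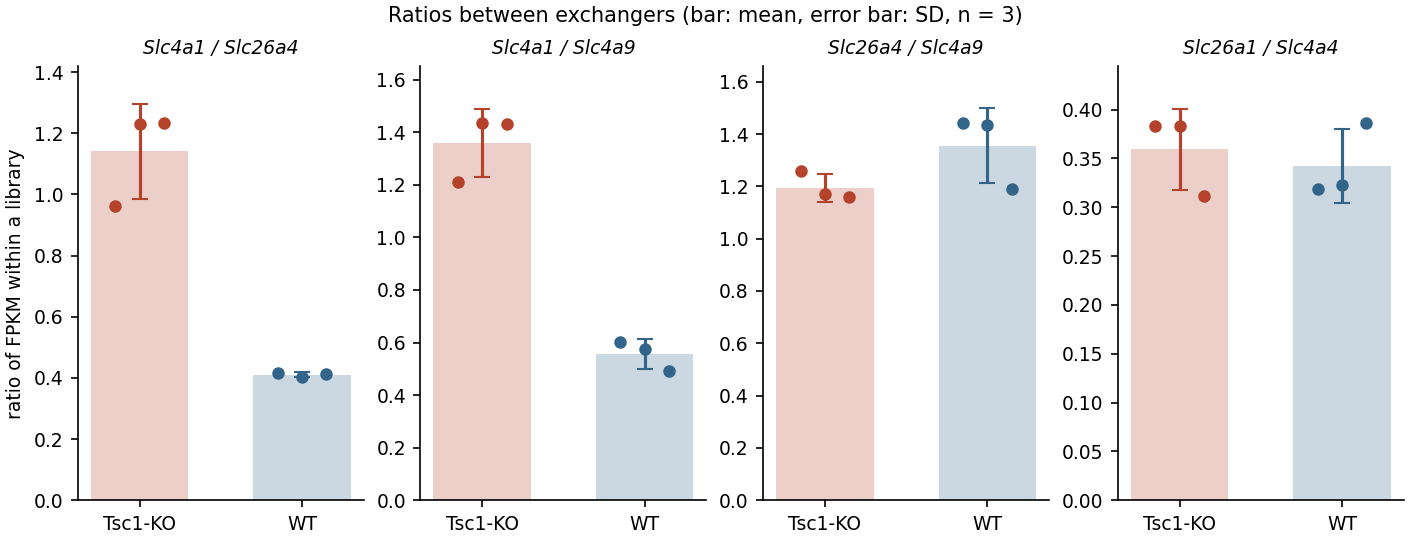
Ratios of FPKM within each library for 4 pairs of exchangers, with 1 point per library, bars at the mean and error bars of 1 SD (n = 3), Tsc1-KO left of WT. Slc4a1 over Slc26a4 averaged 1.14 in Tsc1-KO and 0.411 in WT with no overlap, while Slc26a1 over Slc4a4 averaged 0.359 in Tsc1-KO and 0.343 in WT with overlapping points.

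Among the transporters of the proximal tubule, Slc26a1 (identifier 231583), a basolateral exchanger of sulfate, oxalate and bicarbonate, had 46.0, 45.8 and 44.1 FPKM in Tsc1-KO replicates 4, 5 and 6, against 55.0, 56.4 and 55.0 FPKM in WT replicates 1, 2 and 3. The gap between the groups was several times the range within either of them. The change in the mean was -18.3%, with a log2 fold change of -0.29 (standard error 0.0486, 95% interval -0.41 to -0.18, limma adjusted p = 0.0364). The decrease was smaller than a fold of 1.3. Its direction held in all 12 alternatives, but the call was lost without a variance trend (adjusted p = 0.082) and when any library other than WT replicate 3 was left out (adjusted p between 0.0828 and 0.16 from limma).

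Slc26a1 is the only called exchanger with an entry among the RefSeq promoters used here, and both of its start sites are shown because the gene-level FPKM does not separate them. Each run covers 250 bases before to 50 bases after the start on the minus strand of GRCm38.p6. Capitals mark TAAACA, the core of the motif bound by forkhead proteins such as FOXI1, the transcription factor of intercalated cells, which was searched on both strands (TAAACA and TGTTTA).
Slc26a1 start 1, chr5:108675316-108675615: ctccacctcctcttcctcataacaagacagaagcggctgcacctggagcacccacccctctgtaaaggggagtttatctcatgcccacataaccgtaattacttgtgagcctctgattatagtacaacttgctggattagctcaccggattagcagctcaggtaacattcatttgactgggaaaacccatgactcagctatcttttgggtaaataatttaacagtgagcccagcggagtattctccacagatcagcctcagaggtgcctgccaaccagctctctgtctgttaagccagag
Slc26a1 start 2, chr5:108674747-108675046: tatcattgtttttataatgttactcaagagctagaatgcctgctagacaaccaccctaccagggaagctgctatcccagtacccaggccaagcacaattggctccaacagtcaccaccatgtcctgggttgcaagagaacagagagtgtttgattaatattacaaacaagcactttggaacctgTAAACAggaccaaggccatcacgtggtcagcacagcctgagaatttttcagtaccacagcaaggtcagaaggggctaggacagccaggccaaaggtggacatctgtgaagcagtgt
The match in the second run begins 66 bases before the start, and the first run has none. Bases after the start of the first run were found in an annotated GENCODE transcript of the gene, while those of the second run were not. Of 9 promoter runs from 6 of the exchangers (Slc26a1, Slc26a4, Slc26a6, Slc4a2, Slc4a4 and Slc4a7), 1 held the letters, against 13.4% of 32851 runs of the same length. A match of these letters is a description of the sequence and not a binding site.

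Slc4a4 (identifier 54403), the basolateral sodium bicarbonate cotransporter of the proximal tubule, was the most abundant of the 9 in both groups. It had 120, 119 and 142 FPKM in Tsc1-KO replicates 4, 5 and 6, against 172, 175 and 142 FPKM in WT replicates 1, 2 and 3. Tsc1-KO replicate 6, at 141.5 FPKM, almost met WT replicate 3, at 142.3 FPKM, and the other 4 libraries were far apart. The log2 fold change of -0.36 (standard error 0.105, 95% interval -0.61 to -0.11) did not pass (limma adjusted p = 0.138). It passed without WT replicate 3, where it was -0.46 (limma adjusted p = 0.0318).

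The apical exchanger Slc26a6 (identifier 171429), which trades chloride for oxalate, formate or bicarbonate, had 4.46, 4.65 and 4.73 FPKM in Tsc1-KO replicates 4, 5 and 6, against 3.94, 3.22 and 4.06 FPKM in WT replicates 1, 2 and 3. All Tsc1-KO libraries were above all WT libraries, and the log2 fold change of 0.30 (standard error 0.112, 95% interval 0.038 to 0.57) did not pass (limma adjusted p = 0.208). The ratio of Slc26a1 to Slc4a4 was 0.383, 0.383 and 0.311 in the Tsc1-KO libraries, against 0.319, 0.322 and 0.386 in the WT libraries (exact permutation p = 1). The proximal transporters thus kept overlapping proportions for this pair, while Slc26a6 lay in the other direction from both.

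Slc4a2 and Slc4a7 are expressed in many cell types. Slc4a2 (identifier 20535) encodes the chloride/bicarbonate exchanger AE2 and had 20.4, 20.7 and 21.3 FPKM in Tsc1-KO replicates 4, 5 and 6, against 16.1, 17.6 and 17.5 FPKM in WT replicates 1, 2 and 3. The groups did not overlap. Its log2 fold change was 0.28 (standard error 0.0619, 95% interval 0.14 to 0.43, limma adjusted p = 0.0749), and it passed without WT replicate 3 (limma adjusted p = 0.0425). Slc4a7 (identifier 218756), which encodes the sodium bicarbonate cotransporter NBCn1, had 2.18, 2.36 and 2.65 FPKM in Tsc1-KO libraries, against 2.82, 2.69 and 2.71 FPKM in WT libraries, close together though without overlap. Its log2 fold change was -0.19 (95% interval -0.45 to 0.075, limma adjusted p = 0.409).

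Without WT replicate 3, 2 of 9 exchangers were called higher (Slc4a1 and Slc4a2) beside 5.36% of all tested genes. In the same setting 3 of 9 were called lower (Slc26a1, Slc26a7 and Slc4a4) beside 3.02% of all tested genes. Slc26a7 is among these 3 only because its WT values carried it past the minimum for testing, so its call is a description. Leaving out Tsc1-KO replicate 6 left 0 of the 9 called by limma, and 0 of all 13230 genes tested. At an unadjusted limma p under 0.05 were 6 of the 9 there, beside 1777 of all 13230 tested genes.

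**Figure D4:**
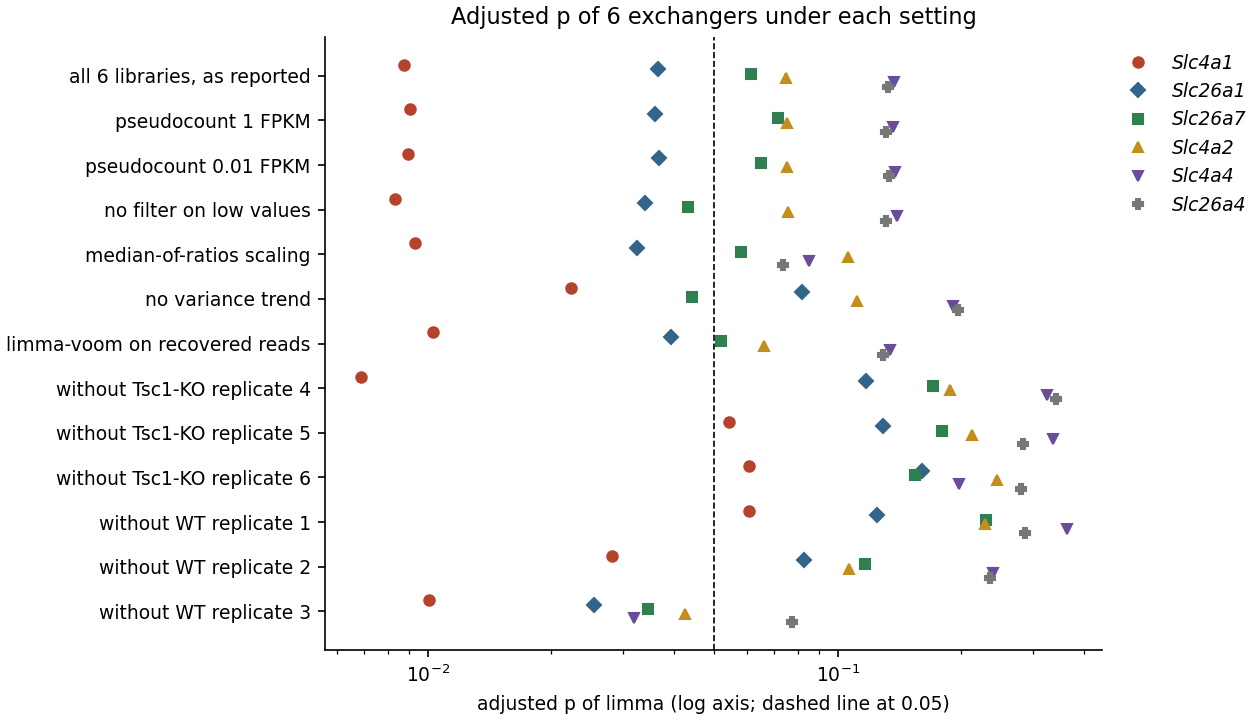
Adjusted p from limma on a log axis for the 6 exchangers with the smallest values, down the settings from all 6 libraries to each library left out, with a dashed line at 0.05. Slc4a1 lies left of the line in all but 3 settings (without Tsc1-KO replicate 5, Tsc1-KO replicate 6 or WT replicate 1), and without WT replicate 3 all but Slc26a4 lie left of it.

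The order of levels shifted at 1 place above all. In Tsc1-KO the order by mean FPKM was Slc4a4 (127), Slc26a1 (45.3), Slc4a1 (30.2), Slc26a4 (26.4), Slc4a9 (22.1), Slc4a2 (20.8), Slc26a6 (4.61), Slc4a7 (2.4) and Slc26a7 (0.258). The ranges of Slc4a1 and Slc26a4 overlapped there, as did those of Slc4a9 and Slc4a2, and the other neighbours were apart. In WT it was Slc4a4 (163), Slc26a1 (55.5), Slc26a4 (30.4), Slc4a9 (22.5), Slc4a2 (17.1), Slc4a1 (12.5), Slc26a6 (3.74), Slc4a7 (2.74) and Slc26a7 (0.748), and no neighbours overlapped. Slc4a1 thus stood at rank 3 in Tsc1-KO and at rank 6 in WT, with Slc26a4, Slc4a9 and Slc4a2 each 1 rank lower in Tsc1-KO.

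As a share of the summed FPKM of the 9, Slc4a1 made up 9.22%, 11.9% and 11.2% in Tsc1-KO replicates 4, 5 and 6, against 3.95%, 3.96% and 4.24% in WT replicates 1, 2 and 3. The proximal transporters Slc4a4, Slc26a1 and Slc26a6 together made up 64.9%, 61.6% and 63.8% in Tsc1-KO libraries, against 73.7%, 72.8% and 69.7% in WT libraries. The B-IC pair Slc26a4 and Slc4a9 made up 17.2%, 18.01% and 16.9% in Tsc1-KO libraries, against 16.1%, 16.7% and 18.9% in WT libraries, and these ranges overlapped. A share can move because another gene of the sum moved, so these values describe the mixture and not each gene.

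The other genes of both families did not pass. Of 12 listed, 9 were in the table, 7 were tested and 0 were called by limma or limma-voom. Their median log2 fold change was 0.21 beside 0.04 over all tested genes. At an unadjusted limma p under 0.05 were 3 of the 7, beside 2535 of all 13230 tested genes. Those 3 were Slc4a3, which encodes AE3, Slc4a5, a sodium bicarbonate cotransporter, and Slc4a8, the sodium-dependent chloride/bicarbonate exchanger NDCBE of B-ICs. Slc4a5 had 0.575, 0.858 and 0.689 FPKM in Tsc1-KO replicates 4, 5 and 6, against 0.297, 0.322 and 0.415 FPKM in WT replicates 1, 2 and 3, without overlap (log2 fold change 0.85, limma adjusted p = 0.113). Slc4a8 had 1.19, 1.46 and 1.51 FPKM in Tsc1-KO libraries, against 0.991, 1.06 and 0.923 FPKM in WT libraries, also without overlap (log2 fold change 0.44, limma adjusted p = 0.189). Slc4a3 had 4.31, 4.74 and 4.84 FPKM in Tsc1-KO libraries, against 3.7, 3.67 and 3.38 FPKM in WT libraries (log2 fold change 0.36, limma adjusted p = 0.105). Slc4a11, Slc26a2, Slc26a10 and Slc26a11 overlapped between the groups, with log2 fold changes of 0.22, 0.14, 0.017 and 0.041. Slc4a10 and Slc26a8 were under the minimum for testing, with at most 0.119 and 0.134 FPKM in any library. Slc26a3, Slc26a5 and Slc26a9 were not among the 15302 deposited genes.

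Markers of the cells that carry the exchangers were read in the same libraries. Of 14 markers of A-ICs or of intercalated cells in general, 12 were called higher and 0 lower in Tsc1-KO (Dmrt2, Foxi1, Atp6v0d2, Hepacam2, Adgrf5, Atp6v1g3, Aqp6, Kit, Rhcg, Rhbg, Atp6v1c2 and Atp6v1b1), with a median log2 fold change of 1.13 over the 14. Many of these were named in the study of these mice, so the list is not independent evidence of its direction. Over all tested genes, 1.87% were called higher and 0.234% lower. Atp6v0d2, a subunit of the H+-ATPase, had 37.9, 52.4 and 46.4 FPKM in Tsc1-KO replicates 4, 5 and 6, against 14.4, 15.7 and 17.6 FPKM in WT replicates 1, 2 and 3. The summed level of the 14 was between 442 and 560 FPKM in Tsc1-KO and between 227 and 276 FPKM in WT. Leaving out single libraries moved the count from 12 to between 0 (without Tsc1-KO replicate 6) and 13 (without WT replicate 3, where Avpr1a joined), with 2 without Tsc1-KO replicate 5, 3 when WT replicate 1 and 7 when WT replicate 2 was left out, and dropping the variance trend left 7. Over all 13230 tested genes, the counts called higher in these settings were 0, 709, 24, 26, 170 and 194, in the same order.

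Foxi1 in WT replicate 3 was at 20.6 FPKM, against 9.71 and 10.01 FPKM in the other WT libraries and 36.9, 45.8 and 35.7 FPKM in Tsc1-KO replicates 4, 5 and 6. Slc4a1 in the same WT library, at 12.2 FPKM, was the lowest of all 6. The ratio of Slc4a1 to Foxi1 was accordingly 0.658, 0.718 and 0.938 in Tsc1-KO libraries, against 1.28, 1.27 and 0.594 in WT libraries, and overlapped (exact permutation p = 0.4). The ratio of Slc4a1 to Atp6v0d2 was 0.639, 0.628 and 0.721 in Tsc1-KO libraries, against 0.864, 0.811 and 0.695 in WT libraries (exact permutation p = 0.2).

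Of 4 B-IC markers, Oxgr1, the α-ketoglutarate receptor, was called higher and 0 were called lower. This stands beside 1.87% of all tested genes called higher and 0.234% called lower. Oxgr1 had 12.6, 17.3 and 16.2 FPKM in Tsc1-KO replicates 4, 5 and 6, against 7.3, 8.29 and 8.77 FPKM in WT replicates 1, 2 and 3 (log2 fold change 0.90, limma adjusted p = 0.0262). This call was lost without Tsc1-KO replicate 5 or 6 or WT replicate 1 or 2, with an adjusted p of up to 0.128. Insrr, a receptor of the insulin receptor family, had 7.45, 7.89 and 7.3 FPKM in Tsc1-KO libraries, against 7.11, 7.76 and 8.64 FPKM in WT libraries. Hmx2, a homeobox gene, had 2.94, 3.8 and 3.18 FPKM in Tsc1-KO libraries, against 3.94, 4.3 and 8.57 FPKM in WT libraries, where WT replicate 3 was the highest by far. Slc4a8, the fourth marker, lay above every WT library in every Tsc1-KO library, as Oxgr1 did, and was not called (log2 fold change 0.44). The 4 B-IC markers thus did not share a direction, with 2 above, 1 below and 1 overlapping. Over all tested genes, 17.3% lay above and 8.07% below. Neither Slc26a4 nor Slc4a9 was called.

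**Figure D5:**
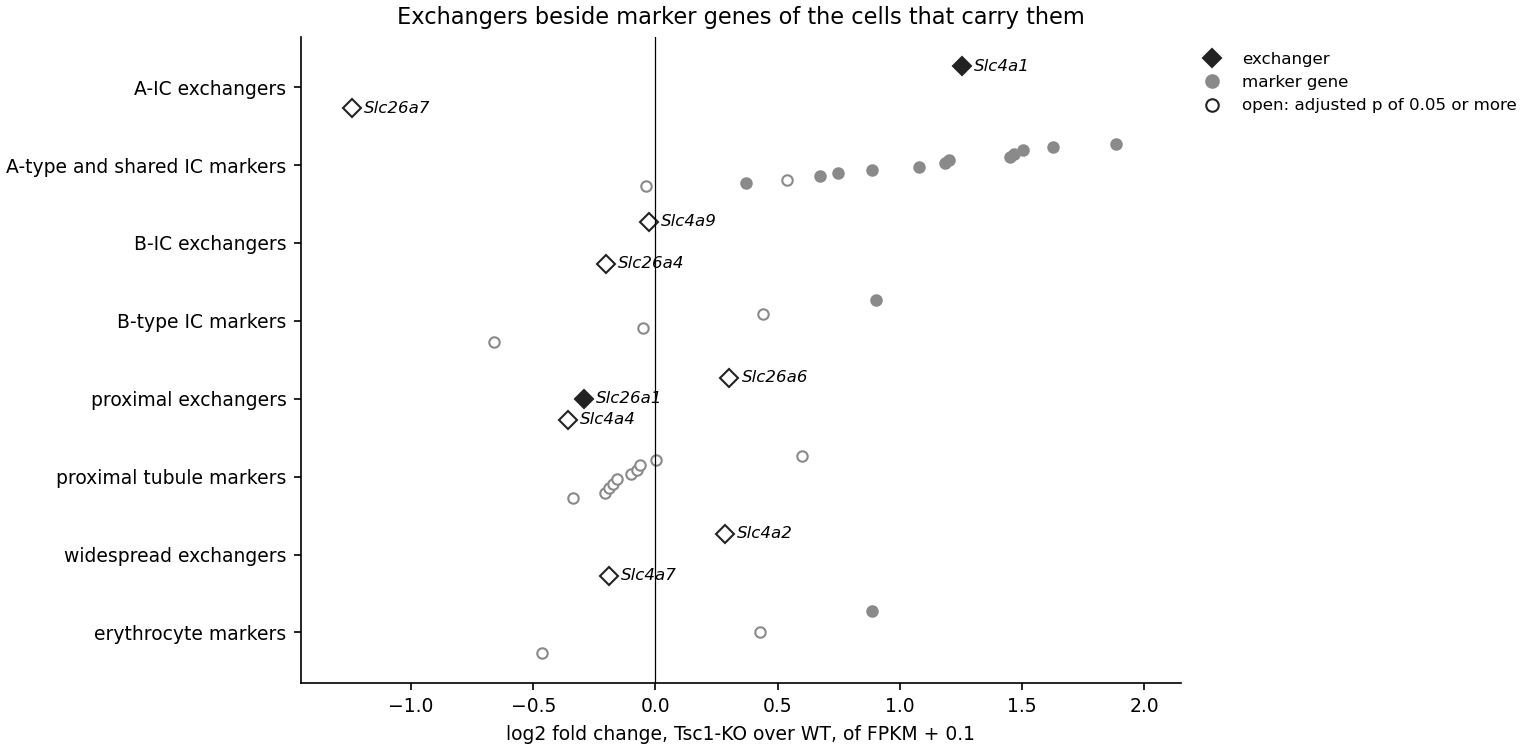
Log2 fold change of FPKM + 0.1, Tsc1-KO over WT, of the 9 exchangers (diamonds, named) above tested marker genes (circles) of the cell types they are known from; filled symbols passed limma at an adjusted p under 0.05. Of 14 A-IC and shared markers 12 are filled on the right, where Slc4a1 lies at 1.25, while the open diamond of Slc26a7, which was not called, lies at -1.24 on the left. Over all tested genes, 1.87% were called higher.

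Of 10 proximal tubule markers, 0 were called in either direction by limma or limma-voom. Beside 2535 of all 13230 tested genes, 2 of the 10 markers were at an unadjusted limma p under 0.05. These were Pck1, an enzyme of gluconeogenesis (log2 fold change 0.60, limma adjusted p = 0.0596), and Slc27a2, a fatty acid transporter (log2 fold change -0.34, limma adjusted p = 0.0833). Without WT replicate 3, limma called Pck1 higher (0.70, adjusted p = 0.0191) and Cubn, the receptor cubilin, lower (-0.36, adjusted p = 0.0233). In that setting 5.36% of all tested genes were called higher and 3.02% lower. The median of the 10 was -0.13, and their summed level was between 7176 and 7924 FPKM in Tsc1-KO and between 7932 and 8235 FPKM in WT. These sums almost met. Taken singly, 8 of the 10 markers overlapped between the groups, 1 lay above in every Tsc1-KO library and 1 below. Over all tested genes, 17.3% lay above and 8.07% below. Within a library, the ratio of Slc26a1 to a proximal marker was lower in every Tsc1-KO library than in every WT library for 4 of the 10 markers and overlapped for 6. The ratio of Slc26a1 to Slc27a2, the 1 marker that itself lay below, was 0.0315, 0.0342 and 0.0324 in Tsc1-KO replicates 4, 5 and 6, against 0.0303, 0.034 and 0.0308 in WT replicates 1, 2 and 3, and overlapped. Its ratio to Lrp2 was 0.221, 0.219 and 0.211 in the Tsc1-KO libraries, against 0.235, 0.245 and 0.264 in the WT libraries, without overlap. Pck1, the 1 marker that itself lay above, was also among the 4. For Slc4a4 the ratio was lower in every Tsc1-KO library for 5 of the 10 markers, Lrp2 and Pck1 among them, and overlapped for 5. Whether these transporters stood apart from the proximal tubule thus depended on the marker they were set against. The part of proximal tubule mass in the values of Slc26a1 and Slc4a4 was not tested.

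Slc4a1 is also the band 3 protein of red blood cells, and the gene-level FPKM does not separate its kidney and erythroid transcripts. Of 12 erythrocyte markers, 6 were in the table and 3 were tested. Alas2, the erythroid enzyme of haem synthesis, had 6.68, 6.11 and 8.97 FPKM in Tsc1-KO replicates 4, 5 and 6, against 3.41, 3.9 and 4.21 FPKM in WT replicates 1, 2 and 3, and was called higher (log2 fold change 0.89, limma adjusted p = 0.0438, but 0.056 with limma-voom and between 0.088 and 0.172 when any library other than WT replicate 3 was left out). Klf1 (log2 fold change -0.46) and Sptb (0.43) were not called. Ank1 and Epb42, whose products tie band 3 to the membrane skeleton, had at most 0.0538 and 0.591 FPKM in any library and overlapped between the groups. The summed level of the 6 was between 7.92 and 10.8 FPKM in Tsc1-KO and between 4.89 and 6.69 FPKM in WT, without overlap. Most of it was Alas2. The part of red blood cells in the value of Slc4a1 was not tested.

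Among 16 partners of the exchangers, which hydrate CO2, recycle chloride or anchor the transporters, Oxgr1 was the 1 called, and their median log2 fold change was 0.0084. For this and the next lists, the share over all tested genes was 1.87% called higher and 0.234% lower. Without WT replicate 3 it was 5.36% higher and 3.02% lower. Stk39, a kinase acting on chloride transporters, had a log2 fold change of 0.35 (limma adjusted p = 0.0941). Without WT replicate 3, limma called Stk39 higher (0.40, adjusted p = 0.0414) and the potassium chloride cotransporter gene Slc12a7 lower (-0.42, adjusted p = 0.0136). Car2, the cytosolic carbonic anhydrase that supplies bicarbonate to AE1, had 271, 282 and 280 FPKM in Tsc1-KO libraries, against 240, 265 and 241 FPKM in WT libraries, without overlap (log2 fold change 0.16, limma adjusted p = 0.216). Of the 6 principal cell markers, Scnn1b and Scnn1g, subunits of the epithelial sodium channel, were called higher (log2 fold changes 0.66 and 0.57), calls that were both lost without Tsc1-KO replicate 5, Tsc1-KO replicate 6 or WT replicate 1, while Aqp2 overlapped between the groups and was called higher by limma without WT replicate 3 (0.41, adjusted p = 0.0376). Fxyd4, a regulator of the sodium pump, was below every WT library in every Tsc1-KO library (log2 fold change -0.35, limma adjusted p = 0.0732). Aqp3, a basolateral water channel, had a log2 fold change of -0.16 and Avpr2, the vasopressin receptor, one of 0.0049, and both overlapped. Of 6 markers of thick limb and distal tubule, 0 were called by limma or limma-voom. Beside 2535 of all 13230 tested genes, 2 of the 6 were at an unadjusted limma p under 0.05, Slc12a3 (log2 fold change 0.20) and Umod (0.34). Without WT replicate 3, limma called 2 higher, Umod (0.46, adjusted p = 0.0456) and Kcnj1, the potassium channel ROMK (0.35, adjusted p = 0.0375).

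The genes most like each intercalated cell exchanger were sought by Pearson's r of log2(FPKM + 0.1) over the 6 libraries, among the 12128 genes that averaged 1 FPKM or more. With so few libraries of 2 genotypes a high r is common, and it mostly restates which groups differ. For Slc4a1 they were Anxa4, an annexin (r = 0.999), Sgpp2, a sphingosine phosphate phosphatase (r = 0.998), and Bmpr1b, a receptor of bone morphogenetic proteins (r = 0.998). All 3 were called higher, with log2 fold changes of 0.55, 0.69 and 0.96. For Slc26a7 they were Rab17, Sfxn5 and Top1mt (r between 0.989 and 0.99), none of them called, with log2 fold changes of -0.29, -0.35 and -0.20. For Slc26a4 they were Pigh, Slc16a6 and Irak4 (r between 0.993 and 0.994), and for Slc4a9 they were Coq2, Pura and Rbm47 (r between 0.977 and 0.988), and none of these 6 was called. Between the exchangers themselves, r was -0.91 for Slc4a1 with Slc26a7, 0.26 for Slc26a4 with Slc4a9 and 0.78 for Slc4a4 with Slc26a1.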

How the data were processed

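The 6 libraries were made from poly A-selected RNA of whole kidney and read on an Illumina HiSeq instrument. Per the labels, reads were aligned with HISAT2 2.0.4 and counted with HTSeq 0.9.1, on a mouse genome whose build is not given in the sources used here. The FPKM columns that the authors deposited hold 1 library each. The base mean columns that the authors deposited hold a signal, an average of normalised counts, and served only to recover whole reads (of 90069 values no larger than 10000 reads, 100% came within 0.02 of a whole number). The fold change and p-value columns of the authors' own comparison and the lists drawn from them were not used.

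log2(FPKM + 0.1) was fitted in R 4.3.3 with limma 3.58.1, with genotype as the only term, a trended variance, 2-sided p-values and the Benjamini-Hochberg correction across 13230 genes. The script was tested on simulated data. Single values were compared by exact permutation tests. The alternatives were pseudocounts of 1 and 0.01 FPKM, no filter, median-of-ratios scaling, no variance trend, limma-voom on recovered reads, a fold above 1.3 and each library left out. All 9 exchangers and all other Slc4 and Slc26 genes are named, from each further list the genes called or otherwise the 2 with the smallest p, every B-IC and erythrocyte marker as single or summed levels, and the 3 genes most like each of 4 exchangers. Aqp2, Aqp3, Avpr2, Fxyd4, Avpr1a, Cubn, Lrp2, Kcnj1, Slc12a7, Car2, H2-Ea-ps and Stk39 were named outside this rule after their values were seen. Some genes of the lists are not reported singly here. The exchangers and lists were chosen with earlier results of these data known. Promoters are RefSeq sequences of GRCm38.p6. Figures and tables were made with Python, numpy, pandas and matplotlib.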

Additional observations from a re-analysis of the deposited data

How the results depend on the processing

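Of the 9 exchangers, 8 kept the direction of their log2 fold change in all 12 alternatives, and Slc4a9 did so in 10, while leaving out single libraries moved its value between -0.088 and 0.046, above 0 without Tsc1-KO replicate 4 (0.042) or WT replicate 3 (0.046). The count of exchangers called higher was 1, and leaving out single libraries moved it between 0 and 2. The count called lower was 1, and leaving out single libraries moved it between 0 and 3. The 3 include Slc26a7, which reached the minimum for testing only through the WT libraries. It was 2 without the filter on low values and 0 when a fold above 1.3 was also required. Of the genes of the other lists, 16 were called higher and 0 lower; leaving out single libraries gave 0 to 22 higher and 0 to 2 lower, and dropping the variance trend gave 10 higher. The number of calls over all genes, 248 higher and 31 lower, fell to 0 in both directions without Tsc1-KO replicate 6 (1777 genes at an unadjusted p under 0.05 in limma) and reached 709 higher and 400 lower without WT replicate 3. It was 194 higher and 18 lower without the variance trend and 207 higher and 46 lower with median-of-ratios scaling. The causes were not tested. No paired analysis was possible because the groups share no replicate number. Depth limits Slc26a7 above all, at 9 to 49 reads per library.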
